A study of Mus with 2 samples.

Results

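The genes described here are the coreceptor and regulatory T cell genes Cd8a, Cd8b1, Cd4, Foxp3, Il2ra, Ikzf2, Tnfrsf4 and Tnfrsf18. They were chosen by name, as genes that mark CD8 T cells, CD4 T cells and regulatory T cells (Tregs), and make up 8 of the 32285 features in the matrices. All 8 were detected in both sections and passed the minimum of 20 UMIs used for counts of genes. The study measured spatial gene expression with Visium, in which barcoded spots under a frozen section catch its polyadenylated RNA and each caught molecule is counted once by its unique molecular identifier (UMI). The tissue was CT26 tumor, a mouse colon carcinoma line of BALB/c origin grown under the skin of balb/c mice aged 6 to 8 weeks. The control mouse received PBS, and the rIL7 mouse received 10 µg of recombinant mouse interleukin 7 into the peritoneum on days 11 and 13 after the cells were placed. A 10 µm section of a day 15 tumor was made from each, so the control group and the rIL7 group have 1 section each and no difference below has a replicate check.

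CD8 and CD4 are the coreceptors that bind MHC class I and MHC class II while the T cell receptor reads the presented peptide, and they divide mature T cells into cytotoxic and helper lineages. Tregs are a CD4 lineage set by the transcription factor FOXP3. They carry the high-affinity IL-2 receptor and several costimulatory receptors, they depend on IL-2, and in tumors they restrain cytotoxic T cells. Interleukin 7 sustains T cells through its own receptor, which most Tregs carry at low levels.

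Levels are UMIs per 1000000 UMIs of the spots in question (CPM), and every interval given is a 95% interval that covers counting error only, not differences between mice, sections or libraries. A spot can hold several cells of different types. Each section was split by position into a rim, the 2 outermost rings of spots of the main tissue piece, and an interior, the rest of that piece. The control section had 2219 kept spots and 22951678 UMIs, with 401 rim and 1806 interior spots. The rIL7 section had 1950 kept spots and 25729233 UMIs, with 330 rim and 1599 interior spots. The median spot held 9623 UMIs in the control tumor and 12921.5 in the rIL7 tumor. Transcripts of the CD3 chains, which every T cell carries, were present in both sections. Cd3d, Cd3e and Cd3g together had 350 control UMIs and 1280 rIL7 UMIs, or 15.2 and 49.8 CPM.

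All 8 genes had a higher level in the rIL7 section than in the control section, with larger ratios for the coreceptor genes than for the Treg-associated genes. The coreceptor genes Cd8a, Cd8b1 and Cd4 were 2.93, 4.86 and 3.96 times as high. The Treg-associated genes Foxp3, Il2ra, Ikzf2, Tnfrsf4 and Tnfrsf18 were 1.68, 1.61, 1.30, 1.62 and 2.0 times as high, the last lying just under the 2-fold line. At least 2-fold higher levels were therefore seen for 3 of 8 members, against 4.05% of all 14313 genes with at least 20 UMIs and 7.58% of those with 20 to 1000 UMIs. A level at least 2-fold lower was seen for 0 of 8, against 2.09%. The median log2 ratio of the members was 0.87, beside 0.00 over all genes. In these sections, fewer cells of a type and less RNA per cell cannot be told apart.

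**Figure D1:**
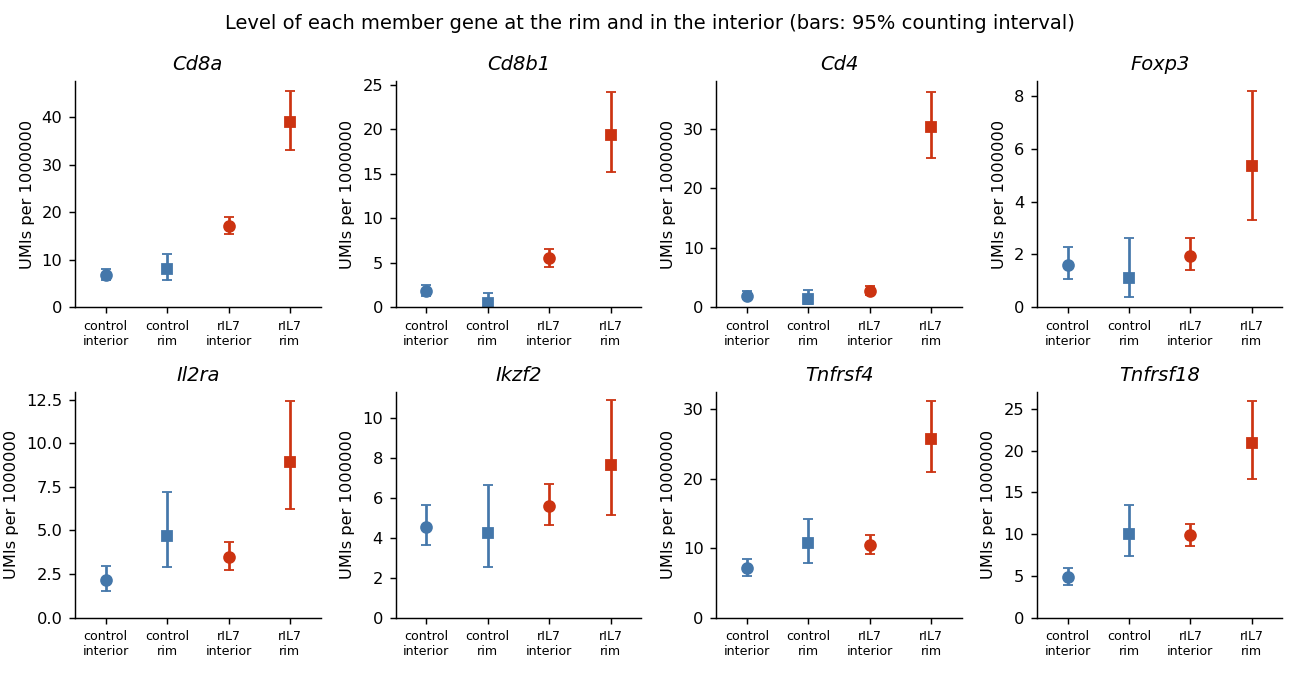
Level of each member gene in UMIs per 1000000 (y axis) in the interior (circles) and at the rim (squares) of the control (blue) and rIL7 (red) section, with bars for the 95% counting interval. For every gene the rIL7 rim is the highest of the 4 values. Cd4 stands at 30.3 there and at 2.68 or lower in the other 3.

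Cd8a encodes the alpha chain that both forms of CD8 contain. Control spots held 161 of its UMIs (7.01 CPM) and rIL7 spots 528 (20.5 CPM), which is a ratio of 2.93 (2.45 to 3.51). By zone it had 36 UMIs at the control rim, 124 in the control interior, 153 at the rIL7 rim and 370 in the rIL7 interior. The corresponding levels were 8.05, 6.74, 39.0 and 17.1 CPM, so both rIL7 zones lay above both control zones with no overlap of intervals. The 2 control zones did not differ beyond their counting error.

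Cd8b1 encodes the beta chain, which pairs with the alpha chain on conventional cytotoxic T cells. Its UMIs numbered 36 (1.57 CPM) under PBS and 196 (7.62 CPM) under rIL7, a ratio of 4.86 (3.39 to 7.14). At the control rim it had 2 UMIs, against 33 in the control interior, 76 at the rIL7 rim and 119 in the rIL7 interior. The rim levels were thus 0.447 and 19.4 CPM, and the interval of their ratio of 43.3, 11.6 to 364, is wide because of the 2 control UMIs. Cd8b1 made up 18.3% (13.1 to 24.4) of the CD8 UMIs, the sum of Cd8a and Cd8b1, in the control tumor and 27.1% (23.9 to 30.5) in the rIL7 tumor. Summed, the CD8 genes were 3.28 times as high in the rIL7 section (2.80 to 3.86), which is close to the 3.26 (2.90 to 3.68) of the CD3 genes.

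Cd4 differed between the sections mainly at the rim. It had 41 UMIs (1.79 CPM) in the control section, 6 of them at the rim and 35 in the interior. In the rIL7 section it had 182 UMIs (7.07 CPM), with 119 at the rim and 58 in the interior. The rim level was 1.34 CPM without rIL7 and 30.3 CPM with it, 22.6 times as high (10.1 to 62.8). The interior levels were 1.90 and 2.68 CPM, and their ratio of 1.41 has an interval, 0.910 to 2.21, that includes 1. Of the Cd4 UMIs in the main piece of the rIL7 section, 67.2% (59.8 to 74.1) lay at the rim, which held 17.1% of its spots and 15.4% of all its UMIs. In the control section 14.6% (5.57 to 29.2) lay there, beside 19.6% of all UMIs.

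Foxp3, the factor that defines Tregs, was the scarcest member in both sections. It had 34 control UMIs (1.48 CPM) and 64 rIL7 UMIs (2.49 CPM), a ratio of 1.68 (1.09 to 2.63). The control rim and interior held 5 and 29 UMIs, and the rIL7 rim and interior 21 and 42. The interior levels, 1.58 and 1.94 CPM, did not differ beyond counting error (ratio 1.23, 0.749 to 2.05), whereas the rim levels of 1.12 and 5.35 CPM did (ratio 4.79, 1.76 to 16.2). Spots with a Foxp3 UMI numbered 31 of 2219 in the control tumor and 63 of 1950 in the rIL7 tumor, and all but 3 and 1 of them held a single UMI.

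Il2ra encodes the alpha chain of the IL-2 receptor, CD25, which activated effector T cells also carry. It had 62 UMIs (2.70 CPM) and 112 UMIs (4.35 CPM) in the control and rIL7 sections, a ratio of 1.61 (1.17 to 2.24). It was already higher at the rim than in the interior of the control section, with 4.70 CPM from 21 UMIs against 2.18 CPM from 40 UMIs. In the rIL7 section the rim stood at 8.92 CPM (35 UMIs) and the interior at 3.47 CPM (75 UMIs).

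Ikzf2 encodes Helios, a transcription factor of thymus-derived Tregs that is also found in other activated T cells. It showed the smallest difference between the sections of the 8 members, with 104 UMIs (4.53 CPM) and 152 UMIs (5.91 CPM) and a ratio of 1.30 (1.01 to 1.69). By zone it had 19 and 84 UMIs at the control rim and interior and 30 and 121 UMIs at the rIL7 rim and interior. Within each zone, the interval of the ratio between sections included 1, with 1.80 (0.980 to 3.38) at the rim and 1.22 (0.919 to 1.64) in the interior.

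Tnfrsf4 and Tnfrsf18 encode OX40 and GITR, costimulatory receptors that Tregs carry at rest and other T cells gain on activation. For Tnfrsf4 the counts were 181 UMIs (7.89 CPM) and 329 UMIs (12.8 CPM), a ratio of 1.62 (1.35 to 1.95). Its rim and interior UMIs were 48 and 132 in the control tumor and 101 and 226 in the rIL7 tumor. Tnfrsf18 had 134 UMIs (5.84 CPM) and 300 UMIs (11.7 CPM), a ratio of 2.0 (1.62 to 2.47). Its rim and interior UMIs were 45 and 89 in the control tumor and 82 and 213 in the rIL7 tumor. The ratio of Tnfrsf18 between sections was much the same at the rim (2.08, 1.43 to 3.06) and in the interior (2.03, 1.58 to 2.64), and the level at the rIL7 interior, 9.85 CPM, did not differ beyond counting error from the 10.1 CPM of the control rim.

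To show the unevenness inside the tissue, 4 quadrants were cut at the median row and column, and these are not replicates. All 4 rIL7 quadrants lay above all 4 control quadrants for 4 of 8 members, Cd8a, Cd8b1, Cd4 and Tnfrsf4, beside 9.74% of all genes, and 0 of 8 lay below them, beside 9.77%. Cd8a ranged from 5.25 to 10.1 CPM over the control quadrants and from 13.7 to 27.8 CPM over the rIL7 quadrants. Cd4 ranged from 0.548 to 2.65 CPM and from 3.39 to 9.95 CPM. The quadrants overlapped for Foxp3 (0.730 to 2.38 CPM in the control, 1.56 to 3.3 CPM in the rIL7 section), Il2ra, Ikzf2 and Tnfrsf18.

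By zone, 3 of 8 members were at least 2-fold higher in the rIL7 interior than in the control interior (Cd8a, Cd8b1 and Tnfrsf18), beside 2.72% of all genes (4.76% of those with 20 to 1000 UMIs), with a median log2 ratio of 0.61. At the rim 6 of 8 were, beside 6.55% of all genes (7.06% of those with 20 to 1000 UMIs), with a median log2 ratio of 1.76. In neither zone was a member at least 2-fold lower, beside 2.21% of all genes in the interior and 2.66% at the rim. The remaining 2 genes were Il2ra and Ikzf2, at 1.90 and 1.80 times the control rim level.

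**Figure D2:**
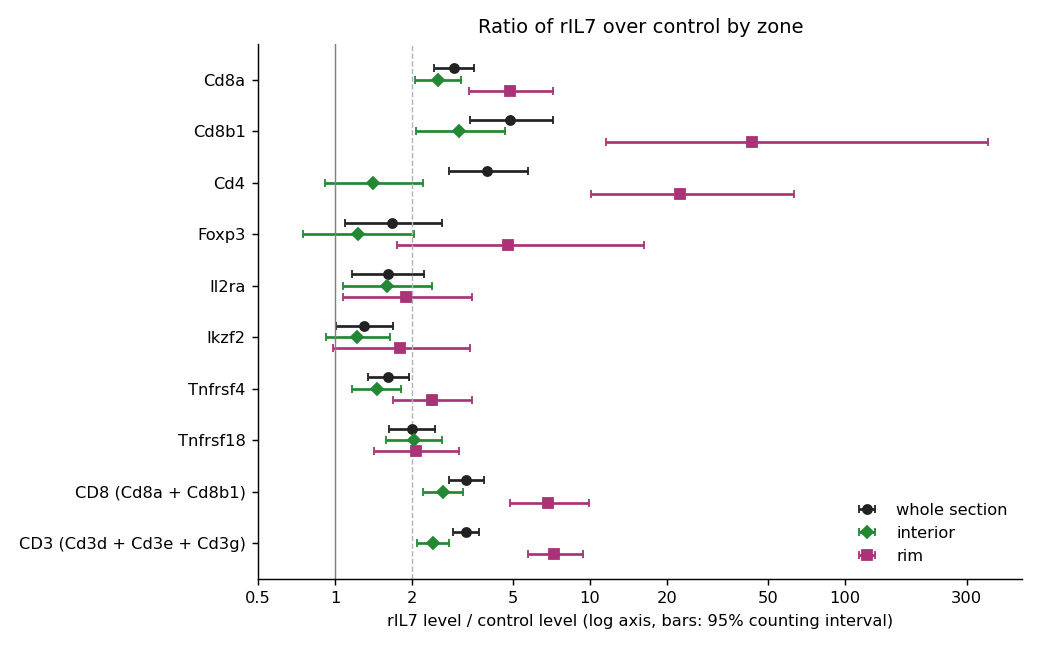
Ratio of the rIL7 level over the control level (log axis) for each member, for the summed CD8 genes and for the summed CD3 genes, over the whole section (circles), the interior (diamonds) and the rim (squares), with 95% counting intervals. The solid line marks equal levels and the dashed line 2-fold. Cd4 runs from 1.41 in the interior to 22.6 at the rim, while Tnfrsf18 keeps to between 2.0 and 2.08.

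Because T cell transcripts as a whole were more abundant in the rIL7 section, the members were also counted per 100 CD3 UMIs. On this scale the CD8 genes stood level, at 56.3 (47.0 to 67.2) in the control tumor and 56.6 (51.6 to 62.0) in the rIL7 tumor, a ratio of 1.0 (0.822 to 1.23). Of the coreceptor genes, Cd8b1 was higher beyond counting error, at 10.3 and 15.3 per 100 CD3 UMIs (ratio 1.49, 1.02 to 2.23). Cd4 was 11.7 and 14.2 (ratio 1.21, 0.841 to 1.78), which did not differ beyond counting error.

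Dividing by CD3 lowers nearly every gene, since 98.6% of all 14313 genes had a lower ratio to CD3 in the rIL7 section, with a median of 0.306. The 5 Treg-associated members were among them, and each stood above that median. Foxp3 stood at 9.71 (6.62 to 13.8) per 100 CD3 UMIs in the control tumor and 5.00 (3.83 to 6.43) in the rIL7 tumor, a ratio of 0.515 (0.328 to 0.819). For Il2ra, Ikzf2, Tnfrsf4 and Tnfrsf18 the ratios were 0.494, 0.400, 0.497 and 0.612, and none of the intervals reached 1. Summed, these 5 genes had 147 UMIs per 100 CD3 UMIs in the control tumor and 74.8 in the rIL7 tumor. The ratio is not a share of T cells, since the transcripts differ in number per cell and need not all come from T cells. In the control tumor the 5 genes had 515 UMIs, against 350 of the CD3 genes. How much of them came from Tregs, other T cells or other cell types was not tested.

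**Figure D3:**
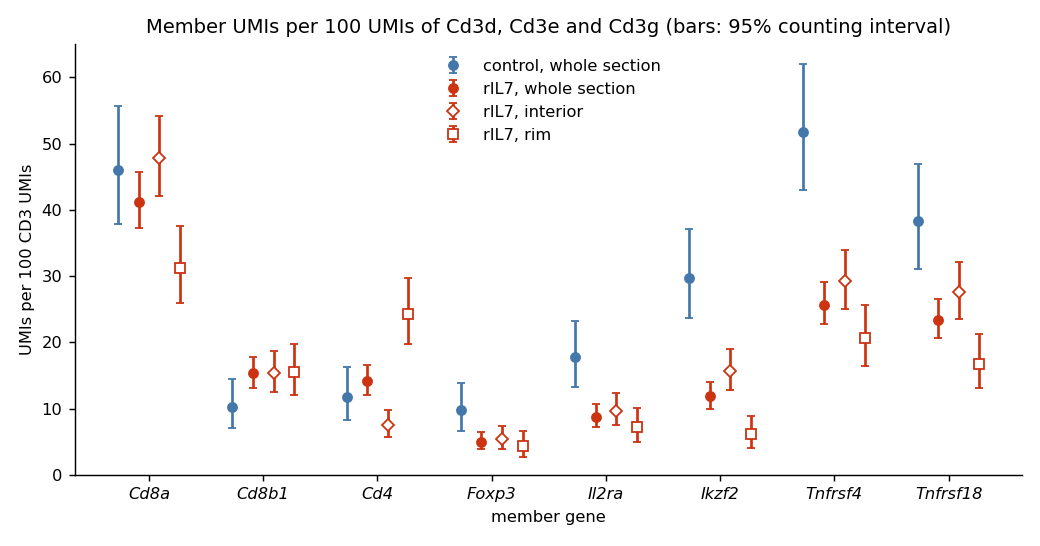
UMIs of each member per 100 UMIs of Cd3d, Cd3e and Cd3g (y axis) in the whole control section (blue), the whole rIL7 section (filled red), the rIL7 interior (open diamonds) and the rIL7 rim (open squares), with 95% counting intervals. The 5 genes on the right are lower in the rIL7 section, as are 98.6% of all genes on this scale. Ikzf2 goes from 29.7 (control) to 11.9 (rIL7), or 0.400 times, beside a median of 0.306 over all genes. Cd4 separates the zones of the rIL7 section, with 24.3 at the rim and 7.49 in the interior.

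Per CD3 UMI, 97.7% of all genes were lower at the rim than in the interior of the rIL7 section, with a median ratio of 0.277. Cd4 stood at 24.3 per 100 CD3 UMIs at the rim and 7.49 in the interior, a ratio of 3.24 (2.30 to 4.61). Cd8a had 31.2 at the rim and 47.8 in the interior (ratio 0.653, 0.520 to 0.818), whereas Cd8b1 had 15.5 and 15.4 (ratio 1.01, 0.730 to 1.39). Of the Treg-associated members, Ikzf2 (0.392), Tnfrsf18 (0.608) and Tnfrsf4 (0.706) were lower at the rim beyond counting error, and the intervals of Foxp3 (0.790, 0.439 to 1.38) and Il2ra (0.737, 0.471 to 1.14) included 1. In the interior, Cd4 per CD3 UMI was lower in the rIL7 section than in the control section, 7.49 against 12.9 (ratio 0.583, 0.367 to 0.935, beside a median of 0.409 over all genes), and at the rim it was higher, 24.3 against 7.79 (ratio 3.11, 1.32 to 8.96).

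The balance between CD8 and Cd4 transcripts was alike over the whole sections and uneven within the rIL7 section. CD8 UMIs were 82.8% (77.4 to 87.3) of CD8 plus Cd4 UMIs in the control tumor and 79.9% (77.2 to 82.5) in the rIL7 tumor. In the rIL7 section the share was 65.8% (60.6 to 70.8) at the rim and 89.4% (86.5 to 91.8) in the interior. In the control it was 86.4% (72.6 to 94.8) and 81.8% (75.6 to 87.0), which overlap. These are shares of UMIs and not of cells, since a gene's UMIs per cell differ between genes.

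Foxp3 was also set against Cd4 and CD8, as the transcript of one CD4 lineage against those of all CD4 and all CD8 T cells. It made up 45.3% (33.8 to 57.3) of Foxp3 plus Cd4 UMIs in the control tumor and 26.0% (20.6 to 32.0) in the rIL7 tumor. The rIL7 interior, at 42.0% (32.2 to 52.3), was close to the control value, and the rIL7 rim was at 15.0% (9.53 to 22). Against CD8, Foxp3 made up 14.7% (10.4 to 20) of Foxp3 plus CD8 UMIs in the control tumor and 8.12% (6.31 to 10.3) in the rIL7 tumor. Here the rIL7 rim and interior were alike, at 8.40% and 7.91%.

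Comparing rim with interior inside each section, 7 of 8 members were at least 2-fold higher at the rim of the rIL7 section, beside 6.83% of all genes (10.2% of those with 20 to 1000 UMIs), with a median log2 ratio of 1.33, and 0 of 8 at least 2-fold lower, beside 3.41%. The exception was Ikzf2, at 1.37 (0.884 to 2.05). Cd4 had by far the steepest ratio, 11.3 (8.20 to 15.8), followed by Cd8b1 at 3.52 (2.61 to 4.73), Foxp3 at 2.76 (1.55 to 4.76), Il2ra at 2.57, Tnfrsf4 at 2.46, Cd8a at 2.28 and Tnfrsf18 at 2.12. The CD3 genes together stood at 3.49 (3.11 to 3.91).

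In the control section 2 of 8 members were at least 2-fold higher at the rim, beside 1.03% of all genes (1.54% of those with 20 to 1000 UMIs), with a median log2 ratio of 0.08. These were Il2ra at 2.16 (1.21 to 3.75) and Tnfrsf18 at 2.08 (1.42 to 3.01). Tnfrsf4 followed at 1.5 (1.05 to 2.10), and the intervals of Cd8a, Cd4, Foxp3 and Ikzf2 included 1. The control ratio of Cd4 rests on 6 rim UMIs, and on the log2 scale it went from -0.50 to 0.86 when every spot was given the same weight. Cd8b1 was lower at the control rim, at 0.249 (0.0290 to 0.975), beside 2.28% of all genes at least 2-fold lower there. The count of 2 rests on the rim definition: it was 0 with a rim of 1 ring and 1 with a rim of 3 rings or without the 12 rim spots at the border of the capture area.

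The rim-to-interior ratio of the rIL7 section was then divided by that of the control section. For Cd4 this quotient was 15.9 (6.14 to 48.8), for Cd8b1 14.0 (3.42 to 124), for Foxp3 3.85 (1.22 to 14.6), for Cd8a 1.91 (1.24 to 2.98) and for Tnfrsf4 1.65 (1.08 to 2.53). For Il2ra (1.19, 0.585 to 2.46), Ikzf2 (1.47, 0.744 to 2.96) and Tnfrsf18 (1.02, 0.644 to 1.63) the interval included 1. The CD3 genes had a quotient of 3.0 (2.26 to 4.01). Each quotient compares 1 section with 1 section.

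**Figure D4:**
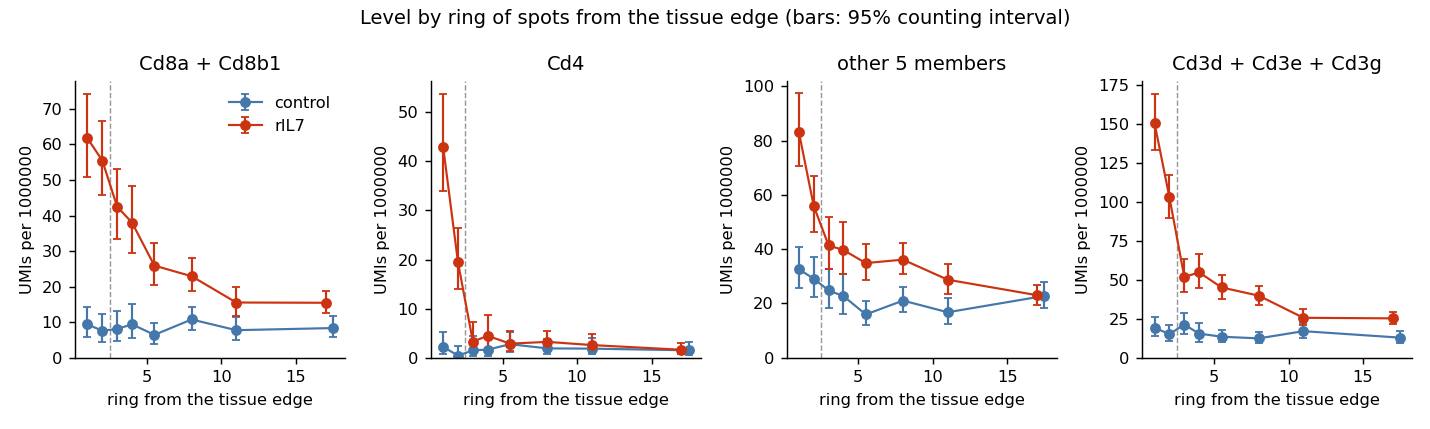
Level in UMIs per 1000000 (y axis) by ring of spots counted from the tissue edge (x axis, rings beyond the fourth pooled and drawn at their middle) for the summed CD8 genes, Cd4, the summed 5 Treg-associated members and the summed CD3 genes, in the control (blue) and rIL7 (red) section with 95% counting intervals. The dashed line ends the rim. Cd4 drops from 43.0 in ring 1 to 3.31 in ring 3 of the rIL7 section, while CD8 declines from 61.7 to 15.5 over the whole depth.

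Ring by ring, the CD8 and Cd4 transcripts of the rIL7 section had different depths. Cd4 stood at 43.0 CPM (34.0 to 53.7) in the outermost ring, 19.4 CPM (13.9 to 26.4) in the next and 3.31 CPM (1.21 to 7.21) in ring 3, and further in it lay between 1.64 and 4.47 CPM. The CD8 genes stood at 61.7, 55.5, 42.5 and 38.0 CPM in rings 1 to 4 and reached 15.5 CPM (12.6 to 18.7) in rings 13 to 21, still above the 8.36 CPM (5.75 to 11.7) of the deepest control rings. Accordingly the CD8 share of CD8 plus Cd4 UMIs was 58.9% (51.6 to 66.0) in ring 1, 74.1% in ring 2 and 92.8% (84.9 to 97.3) in ring 3. The 5 Treg-associated members together went from 83.2 CPM in ring 1 to 23.1 CPM in the deepest rings, where the control stood at 22.8 CPM. In those deepest rings the CD3 genes stood at 25.3 CPM in the rIL7 section and 12.9 CPM in the control.

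The rim signal of the rIL7 section was not spread evenly around the tumor. In 8 sectors of 45 degrees, counted counterclockwise from the right, Cd4 UMIs were found in every sector, at 4.19 to 70.3 CPM. The lowest levels, 6.89 and 4.19 CPM, were in the 2 sectors on the left side (135 to 225 degrees), which hold 47 and 39 rim spots. Foxp3 had 0 UMIs there and Cd8a was lowest too, at 10.3 and 15.4 CPM. The sector with most Cd4, at the lower left (225 to 270 degrees), held 24.4% of the rim Cd4 UMIs in 10.6% of the rim spots. Without that sector, a choice made after seeing the data, the log2 ratio of rim over interior was 3.26 for Cd4 in place of 3.5.

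**Figure D5:**
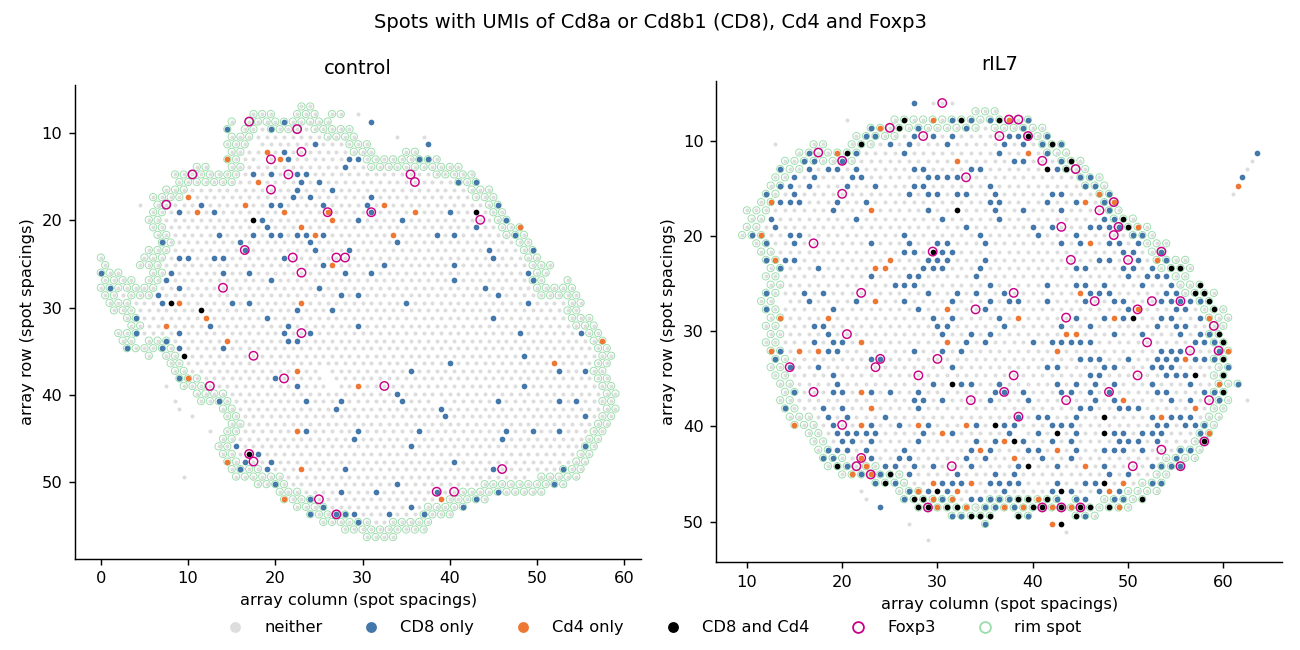
Spots of the control (left) and rIL7 (right) section by array column and row in spot spacings, colored by whether they held a UMI of Cd8a or Cd8b1 (CD8), of Cd4, of both or of neither, with Foxp3 spots circled and rim spots outlined. Spots with both CD8 and Cd4 number 6 in the control tumor and 65 in the rIL7 tumor, of which 49 are at the rim. Single UMIs are shown, so the deeper rIL7 spots had more chance of one.

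The share of spots with a UMI was compared at equal depth, with each spot thinned to 5000 UMIs and shallower spots left out (129 in the control, 49 in the rIL7 section). A CD8 UMI was then expected in 4.17% (3.35 to 5.11) of control spots and 13.2% (11.7 to 14.8) of rIL7 spots, against 8.16% and 28.3% unthinned. Cd4 was at 0.830% and 3.61%, and Foxp3 at 0.757% (0.438 to 1.24) and 1.29% (0.853 to 1.94). The intervals of Foxp3 overlap, which does not decide whether its shares differ at this depth. The ratio of Foxp3 levels over all kept spots was 1.68 (1.09 to 2.63). At the rIL7 rim, 25.8% of thinned spots held CD8 and 14.4% held Cd4, against 10.9% and 1.53% in the interior.

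At the rIL7 rim, spots with a Cd4 UMI more often held CD8 than spots without. A CD8 UMI was found in 49 of 81 spots with Cd4 (60.5%, 49.0 to 71.2) and 91 of 249 without (36.5%, 30.6 to 42.9), at median depths of 12049 and 11067 UMIs. In the interior the shares were close, at 25.9% (15 of 58) and 25.4% (391 of 1541). In the control section, 6 of 38 spots with Cd4 held CD8 (15.8%, 6.02 to 31.3), against 8.02% of the others. CD3 followed Cd4 in the same way, with 85.2% and 61.8% at the rim and 37.9% and 35.8% in the interior. Neighboring spots are not independent, so shares of this kind and their intervals are description only. Within the rIL7 rim, Cd4 and CD8 were both highest in ring 1, at 43.0 and 61.7 CPM, and the part of this in the shares was not tested.

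Foxp3 spots were few, so what they shared is less sharply measured. At the rIL7 rim 9 of 20 Foxp3 spots held Cd4 (45%, 23.1 to 68.5), against 23.2% of the others, and 16 of 20 held CD3. The Foxp3 spots there were deeper, with a median of 14120 UMIs against 11116.5. Over the whole rIL7 section Tnfrsf4 was found in 25.4% (15.3 to 37.9) of Foxp3 spots and 14.5% of the others, and Il2ra in 4.76% and 5.41%. Tnfrsf18 was found there in 17.5% (9.05 to 29.1) of Foxp3 spots and 13.6% of the others. For Tnfrsf4 in the control section the shares were 6.45% (0.791 to 21.4) and 7.59%. In the control section 0 of 31 Foxp3 spots held Tnfrsf18, against 5.67% of the others. A count of 0 allows a share of up to 9.68% by the limit of 3 counts, and the exact upper bound is 11.2%. Most spots with Il2ra, Ikzf2, Tnfrsf4 or Tnfrsf18 held no Foxp3 UMI in either section, for Tnfrsf4 166 of 168 and 274 of 290.

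The rest of the T cell receptor machinery was higher in the rIL7 section along with the coreceptors. Of 15 genes of the receptor complex and its signaling, 14 were at least 2-fold higher, beside 4.05% of all genes (median log2 ratio 1.72), the exception being Trbc2 at 1.17. Trac, the constant region of the receptor alpha chain, had 169 and 721 UMIs. Of 19 genes of CD8 effector function, 14 were at least 2-fold higher (median log2 ratio 1.47). The exceptions were Gzmb, Prf1, Klrk1, Lag3 and Havcr2, at 1.74, 1.78, 1.61, 1.63 and 1.18. Of 13 helper T cell genes only 3 had enough UMIs to measure and 0 were at least 2-fold higher. The 3 were Bcl6 (652 and 794 UMIs), Maf (1137 and 1371) and Tnfsf8 (30 and 32). Bcl6 and Maf had far more UMIs than Cd4 (41 and 182), and how much of them came from helper T cells was not tested. The list therefore does not show whether helper T cell genes rose along with Cd4. Cd40lg, the CD40 ligand of activated helper cells, had 0 UMIs in both sections, which allows up to 0.131 CPM in the control tumor and 0.117 CPM in the rIL7 tumor.

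Among the factors that set the CD4 and CD8 lineages, the defining pair showed no difference of this size. Zbtb7b, which encodes ThPOK of the CD4 lineage, stood at 40.8 and 37.5 CPM, and Runx3 of the CD8 lineage at 36.7 and 38.7 CPM. Zbtb7b had 936 and 965 UMIs and Runx3 843 and 996, beside 350 and 1280 for the 3 CD3 genes together. In the control section each thus outnumbered CD3, and how much of either came from T cells was not tested. Of the 12 genes in this list 5 were at least 2-fold higher in the rIL7 section (Tox, Tcf7, Satb1, Bcl11b and Myb), beside 4.05% of all genes. The median log2 ratio of the list was 0.27. The list of coreceptor ligands had 7 genes, the MHC class I and II chains and Cd74, the invariant chain, which is not itself a ligand. Of these, 0 were at least 2-fold higher over the whole section and 4 at the rim (H2-Aa, H2-Ab1, H2-Eb1 and Cd74). The shares over all genes were 4.05% and 6.55%. H2-K1, a class I heavy chain, stood at 1932 and 2391 CPM over the whole sections. H2-Aa, a class II chain, stood at 1137 CPM at the rIL7 rim and 290 CPM in its interior, and at 404 and 342 CPM in the control.

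For the receptors among the members, partner chains were easier to detect than ligands. Il2rb, which completes the IL-2 receptor with Il2ra and Il2rg, had 379 UMIs (16.5 CPM) in the control tumor and 1199 (46.6 CPM) in the rIL7 tumor, a ratio of 2.82 (2.51 to 3.18), while Il2rg had a ratio of 1.24 (1.17 to 1.32). Il2 itself had 73 and 65 UMIs (ratio 0.794, 0.560 to 1.13). The OX40 ligand gene Tnfsf4 had 5 and 6 UMIs and the GITR ligand gene Tnfsf18 had 1 and 2. Of the 18 genes in the IL-2, OX40 and GITR list, 16 were measured. Among these 1, Il2rb, was at least 2-fold higher (median log2 ratio 0.33), beside 4.05% of all genes.

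Other genes known from Tregs were mixed. Of 23 listed, 18 had enough UMIs, 5 were at least 2-fold higher in the rIL7 section and 1 lower, with a median log2 ratio of 0.26. Over all genes 4.05% were at least 2-fold higher and 2.09% lower. The inhibitory receptor Ctla4 had 52 and 179 UMIs (ratio 3.07, 2.24 to 4.27) and the costimulatory receptor Icos 69 and 177 UMIs (2.29, 1.72 to 3.07), both of which activated effector T cells share. Tnfrsf9, also called 4-1BB, had 2104 and 4838 UMIs (2.05, 1.95 to 2.16) and was lower at the rim than in the interior of both sections (rim-to-interior ratios of 0.804 in the control and 0.764 in rIL7). The other 2 higher genes were Klrg1 and Izumo1r, and the lower gene was Areg, with 1502 and 835 UMIs. Tnfrsf9, Capg (7604 and 9858 UMIs) and Il1rl1 (22456 and 26374) of this list each had more UMIs in both sections than the 3 CD3 genes together (350 and 1280). How much of the list's signal came from Tregs or other T cells was not tested. Ikzf4 had 9 and 8 UMIs, Il10 had 27 and 29, and Ccr8, a chemokine receptor of tumor Tregs, had 0 in both.

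Other cell types also differed between the zones and sections, and their part in the results above was not tested. From the interior to the rim of the rIL7 section, the summed level went from 2111 to 3659 CPM for 9 macrophage genes, from 259 to 359 CPM for 11 dendritic cell genes, from 129 to 882 CPM for 4 plasma cell genes, from 38.2 to 89.5 CPM for 5 endothelial genes and from 1096 to 757 CPM for 2 CT26 tumor genes. In the control the same lists had 2214 and 2444, 257 and 268, 91.1 and 89.0, 48.5 and 60.6, and 1315 and 1205 CPM. The plasma cell sums were mostly Sdc1 except at the rIL7 rim, with 2292 of 2780 UMIs in the rIL7 interior and 382 of 398 at the control rim. From the rIL7 interior to its rim Sdc1 went from 106 to 121 CPM. Igkc, Jchain and Mzb1 went from 20.3, 1.62 and 0.647 CPM to 695, 56.3 and 9.68 CPM. Igkc had 21 UMIs in the control interior and 14 at the control rim. At the control rim, where Il2ra, Tnfrsf4 and Tnfrsf18 were higher, 4 keratinocyte genes summed to 118 CPM, against 40.7 CPM in the control interior. Krt5 and Krt14 went from 0.435 and 0.707 CPM in that interior to 36.9 and 44.5 CPM at its rim, and Krt10 from 39.5 to 36.5 CPM. Krt5 and Krt14 had 165 and 199 UMIs at the control rim and 0 and 1 at the rIL7 rim. The 2 rims thus differed in these genes, and the part of this in the ratios between rims was not tested. Some mouse dendritic cells carry CD4 or CD8 alpha. From interior to rim, 6 of 9 measured dendritic cell genes were at least 2-fold higher under rIL7 (median log2 ratio 1.94) and 1 of 6 in the control (0.12). The shares over all genes were 6.83% and 1.03%. Siglech, a gene of plasmacytoid dendritic cells, was found at the rIL7 rim in 15 of 81 spots with Cd4 and 25 of 249 without (18.5% and 10.0%). Xcr1 and Clec9a, which mark CD8 alpha dendritic cells, had 18 and 23 UMIs in the whole rIL7 section against 528 of Cd8a. NK cell genes, 4 of 4 measured, were at least 2-fold higher in the rIL7 section, beside 4.05% of all genes, with summed levels of 12.8 and 34.4 CPM. Klra8 was the gene of that list at 0, in the control section and at the rIL7 rim.

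Across tiles of 8 array rows by 16 array columns with at least 20 spots, 24 of the 28 pairs of members had a higher correlation in the rIL7 section than in the control section. In 33 rIL7 tiles Pearson's r of the square root of CPM was 0.85 for Cd8a with Cd4, 0.78 for Cd8a with Cd8b1, 0.77 for Cd8a with Tnfrsf4 and 0.44 for Cd4 with Foxp3, and between -0.33 and 0.11 for Ikzf2 with each of the other 7. In 38 control tiles the same first 4 pairs had 0.23, 0.01, 0.49 and 0.40, and Ikzf2 had between -0.33 and 0.28 with the other 7. The 4 pairs with a lower value in the rIL7 tiles were Cd8b1 with Foxp3 (0.37, against 0.51 in the control) and Ikzf2 with Tnfrsf4 (-0.33, against 0.28), Cd8a and Cd4. Tiles of a section share a library and border each other, and control tiles hold few UMIs, so these values describe the sections only. The members together had 753 control UMIs and 1863 rIL7 UMIs. The count of 24 of 28 has no like count over pairs of other genes beside it, so whether it is particular to the members was not tested.

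Of 9820 genes outside the members, those most like CD8 over the rIL7 tiles were Psmb9, Tmsb4x, Cd52, Ms4a4b and Ifi44l (r from 0.91 to 0.92). Those most like Cd4 were Cd52, H2-DMa, Fgd2, Nkg7 and Sirpa (0.87 to 0.88), and those most like the sum of the 5 Treg-associated members were Rasa4, Coro1a, Pld4, Sirpa and Il10ra (0.90 to 0.92). In the control tiles the same genes had r between 0.19 and 0.50. They were picked by r in the rIL7 tiles alone, and control tiles hold fewer member UMIs. The lower control values are therefore no independent comparison of the sections.

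In the genome (GRCm38), 2 pairs of members are neighbors. Cd8b1 lies on chromosome 6 from 71322788 to 71337492 and Cd8a from 71373427 to 71379171, with 35934 bases between them. Tnfrsf4 lies on chromosome 4 from 156013595 to 156016613 and Tnfrsf18 from 156026322 to 156028894, with 9708 bases between them. The genes around each pair differed little between the sections. Krcc1, Rmnd5a and Rnf103 beside the CD8 pair had ratios of 1.09, 0.988 and 0.916, and B3galt6, Sdf4 and 9430015G10Rik beside the other pair had 0.965, 1.0 and 0.941. The annotated span of Sdf4 overlaps that of Tnfrsf4 by 16 bases. Of the remaining members, Cd4 lies on chromosome 6 from 124864693, Foxp3 on chromosome X from 7579676, Il2ra on chromosome 2 from 11642792 and Ikzf2 on chromosome 1 from 69531207.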

How the data were processed

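Visium sections of 1 control and 1 rIL7 tumor were used. Values were used as raw counts of UMIs for each spot, which the authors made with Space Ranger 1.1.0 against mm10 (GRCm38) per the submitters' processing notes, from a 3′ kit. Spot barcodes, gene identifiers, in-tissue flags and array positions were used as deposited by the authors. Spots over tissue with under 10% mitochondrial UMIs and more than 200 genes were kept, as in the study's methods, which removed 2 control spots and 1 rIL7 spot.

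UMIs were summed per section and zone and divided by the total (CPM). The rim was the 2 outermost rings of the largest connected piece on the spot grid, the interior the rest of it (12 control and 21 rIL7 spots lay outside the piece). With 1 section a group no hypothesis test was possible. Sums have exact Poisson intervals, and shares and ratios exact binomial (Clopper-Pearson) ones. Quotients of ratios have exact conditional intervals. A gene at 0 was set to 3 UMIs for a ratio. Lists were counted over genes with at least 20 UMIs in the spots compared. Thinned shares are expected values from the hypergeometric distribution, with no random draw.

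The members and the gene lists were chosen with earlier results of these data known. Named beside the members were CD3 and Trac, their partner chains and ligands, genes of the other Treg and lineage lists, the 5 genes most like each group over tiles (at least 200 UMIs in the rIL7 section), and the chromosomal neighbors. Genes that a count of 5 or fewer refers to, and Siglech, Xcr1, Clec9a, Klra8, Cd40lg, Capg and Il1rl1, were named after their values were seen. RefSeq coordinates of GRCm38.p6 were used. Library scaling alternatives used edgeR 4.0.16 (TMM) and DESeq2 1.42.0 (median of ratios) in R 4.3.3, and the rest Python 3.11.15 with scipy 1.17.1. The ratio and its interval were tested on simulated data, as was the ring assignment. Of the spot barcodes, 1702 occur in both sections, because the grid of the slide reuses them. Sequences of the genes and their promoters were not analysed here.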

Additional observations from a re-analysis of the deposited data

Results flagged for a closer look

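For 4 members the rim-to-interior ratio pointed in opposite directions in the 2 sections. With 1 section each, the difference between sections was not tested. The log2 ratio of rim over interior was 1.82 in the rIL7 section and -2.0 in the control section for Cd8b1, 3.5 and -0.50 for Cd4, 1.46 and -0.50 for Foxp3, and 0.45 and -0.10 for Ikzf2. The control values rest on 2, 6, 5 and 19 rim UMIs. Their 95% counting intervals on the log2 scale ran from -5.11 to -0.04, from -2.04 to 0.76, from -2.22 to 0.89 and from -0.91 to 0.63, so only that of Cd8b1 leaves out 0. For Ikzf2 the rIL7 interval, -0.18 to 1.04, included 0 as well, so neither section sets a direction for this gene. With every spot given the same weight, the control value of Cd4 was 0.86, which turns its direction.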

How the results depend on the processing

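The members' median log2 ratio between sections was 0.86 to 0.98 under every alternative of spot filter, scaling or spot weight, and without the rim sector with most Cd4. Restricted to the rim it was 1.76, with 6 of 8 members at least 2-fold higher. In the control section the 2 members at least 2-fold higher at the rim became 0 with a rim of 1 ring and 1 with a rim of 3 rings, without border spots, with holes counted as rim, or without the top Cd4 sector. In the rIL7 section the CD8 share of CD8 plus Cd4 UMIs was 89.4% (interior) and 65.8% (rim), and the Foxp3 share of Foxp3 plus Cd4 UMIs 42.0% and 15.0%. CD8 spot shares were 2.58% and 8.43% (control, rIL7) at 3000 UMIs and 8.16% and 28.3% unthinned. In the rIL7 interior the share at 5000 UMIs was 10.9%. Of the 84 alternative values for summary results, 16 moved beyond the counting interval or, for counts, by over 1.5 times, and all 16 are given above. Of the 232 for single genes, 9 moved, 8 of them when only the rim or the interior was used. The ninth was the control rim-to-interior ratio of Cd4, which went from -0.50 to 0.86 (log2) with equal spot weights. Tnfrsf18, just under 2-fold, passed that line with TMM, median-of-ratios or equal spot weights and without the top sector, which made 4 of 8. No paired analysis was possible because each group has 1 section, and no replicate could be left out for the same reason. The control rim values of Foxp3, Cd4 and Cd8b1 rest on 5, 6 and 2 UMIs.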
